A study of Mus musculus with 6 samples.

Results

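Inflammasomes are protein assemblies that form in the cytosol of macrophages when a sensor meets a microbial product or a sign of damage. The genes described here are 10 of their parts, chosen by name: the sensors Nlrp3, Nlrp1b, Nlrc4, Naip2, Naip5 and Aim2, the adaptor Pycard, the caspases Casp1 and Casp4, and the pore protein Gsdmd. All 10 were found by symbol among the 19386 genes of the authors' deposited expression table, and all 10 were among the 12082 genes with an adjusted p there. Of 10376 alternative splicing events, 28 lay within these genes. The cells were bone marrow-derived macrophages, grown from marrow in medium with L929 supernatant, which supplies the growth factor for macrophage differentiation, and harvested on day 11. The donors were wild-type C57BL/6 mice, and 3 libraries came from animals with room air exposure and 3 from animals with cigarette smoke exposure. The length and dose of exposure and the age of the mice are not given in the sources used here, and the cells themselves are not described as treated in culture. The labels name 3 replicates per group without saying that each is a separate animal, so the splicing p-values measure the spread between these samples, which may be technical, and the authors' expression p-values that of a fit to 24 libraries.

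In the canonical pathway a sensor, directly or through the adaptor ASC (the product of Pycard), gathers and activates caspase-1, which matures interleukin-1 beta and interleukin-18 and cuts gasdermin D. The freed end of gasdermin D forms pores in the plasma membrane, through which the cytokines leave and by which the cell can die. In the non-canonical pathway the product of mouse Casp4, also known as caspase-11, meets cytosolic lipopolysaccharide and cuts gasdermin D itself. Macrophages are the cell type in which much of this pathway was worked out, and several of its genes are raised further by microbial priming.

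Expression came as 1 group mean per gene, in counts normalized by size factors, and as the authors' test of smoke against room air. Single libraries therefore have no expression value here, and depth per library is unknown. The labelled cell type was checked by markers: in the authors' deposited table all 10 macrophage markers were listed, and their means summed to 57169 normalized counts for room air and 57735 for smoke. Lyz2 was the largest part of both sums (23168 and 24772). None of the 10 was called, with Mrc1 at 3601 and 2196 (DESeq2's adjusted p 0.0836) and Fcgr1 at 537 and 762 (DESeq2's adjusted p 0.218). Neutrophil markers summed to 0.322 and 0.508, dendritic cell markers to 1.66 and 1.02, and erythroid markers to 0 and 0.508, while no T, natural killer, mast cell or basophil marker was listed. B cell markers summed to 146 and 123, with 1 marker at 10 or more normalized counts. The 6 stromal markers summed to 44.5 in room air and 10.3 after smoke, and their part in the results below was not tested. Over all genes tested, 7.69% were called at an adjusted p under 0.05 (502 higher and 427 lower after smoke), and the median log2 fold change was -0.0029.

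The sequences upstream of the sensor genes that fell are shown because these genes moved in the same direction, together with that of Naip2, a close relative of Naip5 that was not called. Each is the 250 bases before the gene's start in the RefSeq promoter table (GRCm38.p6), 5′ to 3′ on the strand of the gene. RefSeq gives Nlrp1b 2 starts, and the window shown is that of the start at the GENCODE 5′ end of the gene, while the other (chr11:71201457-71201706) holds no match to the motifs searched. For Nlrp1b (chr11:71230734-71230983, minus strand) and Aim2 (chr1:173420354-173420603, plus strand) capitals mark matches to GAGGAA, the core bound by PU.1, the factor that defines myeloid cells. For Naip5 (chr13:100247337-100247586, minus strand) and Naip2 (chr13:100202123-100202372, minus strand) capitals mark an ungapped block that the pair shares.
Nlrp1b: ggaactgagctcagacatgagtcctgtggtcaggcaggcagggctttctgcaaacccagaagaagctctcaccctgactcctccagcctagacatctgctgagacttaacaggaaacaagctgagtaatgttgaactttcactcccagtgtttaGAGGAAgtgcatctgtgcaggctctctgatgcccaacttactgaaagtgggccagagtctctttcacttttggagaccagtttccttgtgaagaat
Aim2: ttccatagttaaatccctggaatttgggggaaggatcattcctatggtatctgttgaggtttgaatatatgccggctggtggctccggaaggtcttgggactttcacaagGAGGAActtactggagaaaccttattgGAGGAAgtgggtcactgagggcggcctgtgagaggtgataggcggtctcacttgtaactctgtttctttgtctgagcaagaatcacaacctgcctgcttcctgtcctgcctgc
Naip5: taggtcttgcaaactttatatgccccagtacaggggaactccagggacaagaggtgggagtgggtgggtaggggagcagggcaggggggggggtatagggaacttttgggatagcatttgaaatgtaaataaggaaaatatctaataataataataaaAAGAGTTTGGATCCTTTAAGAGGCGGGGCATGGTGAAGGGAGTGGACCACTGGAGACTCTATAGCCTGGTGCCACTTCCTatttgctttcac
Naip2: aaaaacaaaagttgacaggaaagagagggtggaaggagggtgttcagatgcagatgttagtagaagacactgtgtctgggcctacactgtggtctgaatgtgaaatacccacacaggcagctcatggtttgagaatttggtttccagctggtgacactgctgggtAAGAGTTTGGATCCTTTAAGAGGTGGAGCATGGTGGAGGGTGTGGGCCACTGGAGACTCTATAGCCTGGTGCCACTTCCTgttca
The shared block was 80 bases long with 75 identical (93.8%), from 92 to 13 bases before the start of Naip5 and from 85 to 6 bases before the start of Naip2. RefSeq's Naip5 start lies 1013 bases from the nearest GENCODE start of that gene. Searched on both strands, GAGGAA matched 5 of the 12 upstream windows of the 9 genes with a promoter in the table (1 window each of Nlrp3, Nlrp1b, Aim2, Pycard and Casp1, with 2 windows for Nlrp3, Nlrp1b and Casp4), against 23.3% of 32851 promoter windows of the same length. The NF-kappaB core GGGANTTNC matched in 3 of the 12 windows, that of Aim2 and both of Casp4, which overlap, against 3.54% of all windows. The core of the antioxidant response element, TGACNNNGC, matched in 1 window, that of Naip2, against 10.2% of all windows. The xenobiotic response element core GCGTG (28.2% of all windows) and the interferon-stimulated response element core GAAANNGAA (7.13%) matched in none of the 12. No promoter was printed or searched for Gsdmd.

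Of the 10 genes, 3 fell after smoke, namely Nlrp1b, Naip5 and Aim2, all of them sensors, and none rose. Over all genes tested, 3.53% were called lower. With the trend of fold change in transcript GC content and length removed, 1 of the 3, Nlrp1b, was still called. The sensors as a group had 5 of 6 log2 fold changes below 0 with a median of -0.34, and the adaptor, caspases and pore protein had 1 of 4 below 0 with a median of 0.09 and no call. Over all 10 genes the median log2 fold change was -0.21, and 50.3% of all genes tested were below 0. In bulk samples, fewer cells of a type and less RNA per cell cannot be told apart.

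**Figure D1:**
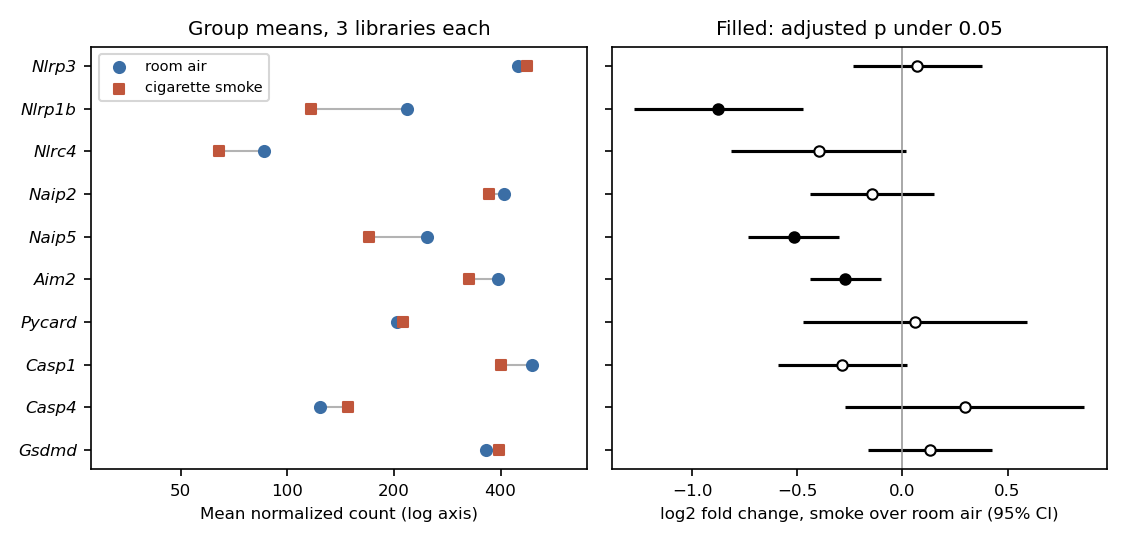
Group means of the 10 inflammasome genes in normalized counts on a log axis (left, 3 libraries per group) and the log2 fold change of smoke over room air with its 95% confidence interval (right). Filled points mark the genes with an adjusted p under 0.05 in the authors' deposited table: Nlrp1b, Naip5 and Aim2, all below 0.

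Nlrp1b encodes a sensor that can be set off when proteases cut its amino-terminal end. The authors' deposited table gave it a mean of 217 normalized counts in room air and 116 after smoke. On the log2 scale this was a fold change of -0.88 there (SE 0.20, 95% confidence interval -1.28 to -0.48), with DESeq2's adjusted p of 0.00169. It was the largest change among the 10 genes, 45.5% lower by the fitted fold change, and the gene lies on chromosome 11 (71153102 to 71230733, minus strand). Of the 50-base words of its longest coding transcript, 2.18% also occurred in another gene, 1.84% in its relative Nlrp1a.

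The NAIP proteins bind bacterial ligands in the cytosol and hand the signal to NLRC4: NAIP5 binds flagellin, and NAIP2 the inner rod of bacterial secretion systems. Naip5 (chromosome 13, 100211739 to 100246323, minus strand) averaged 247 normalized counts in room air and 170 after smoke according to the authors' deposited table. The log2 fold change of Naip5 there was -0.52 (SE 0.11, 95% confidence interval -0.74 to -0.30), with DESeq2's adjusted p of 0.000552, the smallest among the 10 genes. Naip2 (chromosome 13, 100144063 to 100202092, minus strand) averaged 409 and 370 by the authors' deposited table and was not called, at -0.14 on the log2 scale (95% confidence interval -0.44 to 0.15, adjusted p 0.628). Of the 50-base words of Naip5, 36.8% occurred in other genes, 22.3% in Naip6 and 8.83% in Naip2. Of those of Naip2, 19.4% occurred in other genes, 12.5% in Naip1 and 9.53% in Naip5. The values of Naip5 and Naip2 are therefore uncertain where the counting could not place such reads.

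Nlrc4 (chromosome 17, 74425438 to 74459142, minus strand), which assembles behind the NAIPs, was the least counted of the 10 genes, at 86.1 normalized counts in room air and 64.2 after smoke by the authors' deposited table. The log2 fold change there was -0.40 with a 95% confidence interval from -0.81 to 0.01, and it was not called (adjusted p 0.241). The pseudogenes CT033749.1 and Gm18413 overlap Nlrc4 and Naip2 on their own strand, so reads of each pair may be mixed.

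Aim2 encodes a sensor that binds double-stranded DNA in the cytosol (chromosome 1, 173350879 to 173466040, plus strand). The authors' deposited table put it at 392 normalized counts in room air and 327 after smoke. This was a smaller and tighter change than that of Nlrp1b, at -0.27 on the log2 scale (SE 0.09, 95% confidence interval -0.44 to -0.10) with an adjusted p of 0.0282 from DESeq2 in the authors' deposited table. Cadm3 overlaps Aim2 on the other strand. The libraries were made with a directional kit, but whether the counting used strand is not given in the sources used here.

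Nlrp3, the sensor of potassium loss and other signs of cell stress (chromosome 11, 59541568 to 59566956, plus strand), was not called. The authors' deposited table gave 447 normalized counts in room air and 475 after smoke, a log2 fold change of 0.07 with a 95% confidence interval from -0.24 to 0.38 (adjusted p 0.852).

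Downstream of the sensors no gene passed the threshold. Pycard (chromosome 7, 127989708 to 127993867, minus strand) averaged 204 and 212 normalized counts by the authors' deposited table, 0.06 on the log2 scale (95% confidence interval -0.47 to 0.59, adjusted p 0.937). Gm45205 overlaps it on the other strand. Casp1, the effector protease (chromosome 9, 5298517 to 5307265, plus strand), averaged 490 in room air and 401 after smoke by the authors' deposited table, -0.29 on the log2 scale (95% confidence interval -0.59 to 0.02, adjusted p 0.266). The sizes of the Casp1 and Aim2 changes were alike, -0.29 and -0.27, while the standard error was 0.16 for Casp1 and 0.09 for Aim2. Casp4 (chromosome 9, 5308828 to 5336783, plus strand) averaged 123 and 149 by the authors' deposited table and had the widest interval of the 10, with 0.30 on the log2 scale (95% confidence interval -0.27 to 0.87, adjusted p 0.595). Gsdmd (chromosome 15, 75862327 to 75867408, plus strand) averaged 365 and 396 by the authors' deposited table, 0.13 on the log2 scale (95% confidence interval -0.16 to 0.43, adjusted p 0.664). For these 4 genes and for Nlrp3 the intervals held 0, and those of Pycard, Casp1 and Casp4 also held the value of Aim2, at the very edge for Casp4.

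Levels can be compared between genes only per length. Divided by the length of the longest coding transcript, the room air means ran from 327 normalized counts per kilobase for Casp1 and 203 for Gsdmd through 138 for Aim2, 111 for Nlrp3, 86.0 for Casp4 and 84.7 for Naip2. Pycard followed at 53.7, Nlrp1b at 52.5, Naip5 at 47.5 and Nlrc4 at 18.2. The Pycard transcript used was 3800 bases long and kept most of the 1035-base stretch that is intron 3 of Pycard-202. For a more fully spliced transcript the value of Pycard would be higher, so its place in the order is uncertain in both groups. After smoke Casp1 (268) and Gsdmd (221) stayed the highest and Nlrc4 (13.6) the lowest, while Nlrp1b was at 28.2 and Naip5 at 32.6 per kilobase. No spread over libraries was available for these levels, so the order of close neighbours such as Casp4 and Naip2, or Pycard and Nlrp1b, cannot be tested.

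**Figure D2:**
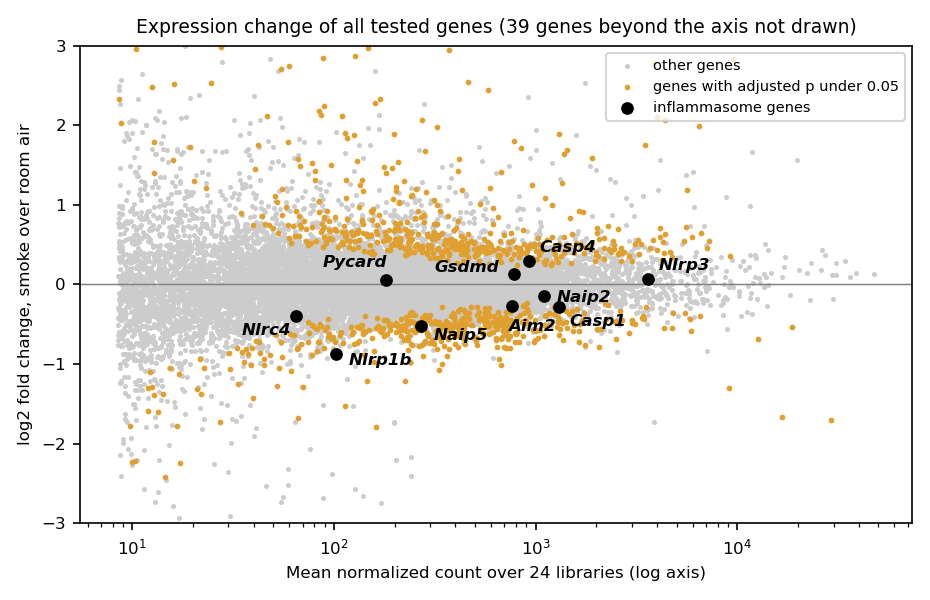
Log2 fold change of smoke over room air against the mean normalized count over 24 libraries (log axis) for all 12082 tested genes; 39 genes beyond 3 on the vertical axis are not drawn. The 10 inflammasome genes (black) lie between -0.88 and 0.30, and only Nlrp1b, Naip5 and Aim2 fall among the called genes (orange).

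Fold changes in this table followed transcript GC content and length over all genes, with Spearman's rho of 0.483 and -0.448 across 12071 genes, which are not independent replicates. When a smooth trend in both was taken out, 1 of the 10 genes was still called, Nlrp1b, with a log2 fold change of -0.81 (adjusted p 0.0134). Naip5 then had -0.34 (adjusted p 0.0916) and Aim2 -0.18 (adjusted p 0.388), both still below 0 and no longer past the threshold. Gsdmd, with the highest GC content of the 10 transcripts (54.4%), changed sign to -0.11 (adjusted p 0.888). Over all genes the trend removal left 153 calls, 53 of them lower.

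**Figure D3:**
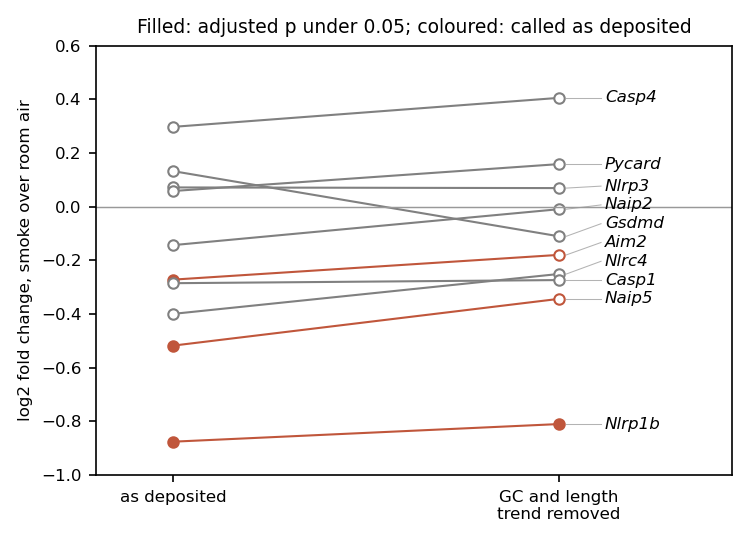
Log2 fold change of smoke over room air for each of the 10 genes as deposited (left) and after removing the trend in GC content and length (right). Filled points have an adjusted p under 0.05: 3 genes on the left, and only Nlrp1b on the right.

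The wider pathway was described by a list of 83 genes, of which 76 were listed and 74 tested. Called were 7 of the 74 by the authors' deposited table, 3 higher and 4 lower after smoke, beside 7.69% of all genes tested, and the median change was 0.0071 on the log2 scale. Among the cytokines 2 of 5 tested genes rose and none fell. Il1b, the main substrate of caspase-1, rose by the authors' deposited table from a room air mean of 17.5 normalized counts to 69.3, a log2 change of 1.99 (95% confidence interval 0.86 to 3.12, adjusted p 0.0148). Il1rn, which encodes the interleukin-1 receptor antagonist, rose by the authors' deposited table from 130 to 295, a log2 change of 1.19 (95% confidence interval 0.41 to 1.97, adjusted p 0.0416).

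Among the other sensors and close paralogs 2 of 10 tested genes fell and none rose. The pseudogene Nlrp1c-ps, a relative of Nlrp1b, fell by the authors' deposited table from 55.1 to 20.4 normalized counts, a log2 change of -1.38 (95% confidence interval -1.95 to -0.80, adjusted p 0.000515), and it was the 1 list gene still called once the GC and length trend was removed (-1.35, adjusted p 0.00231). It shared 0.343% of the 50-base words of Nlrp1b. Naip6, a relative of Naip5, fell by the authors' deposited table from 250 to 164, a log2 change of -0.57 (95% confidence interval -0.84 to -0.30, adjusted p 0.00208). The fall of Naip6 is no measurement apart from that of Naip5 as far as their shared sequence goes. The DNA-binding relatives of Aim2 with the highest means, Ifi203 and Ifi204, were not called in the authors' deposited table, with log2 changes of -0.21 (adjusted p 0.768) and -0.26 (adjusted p 0.588).

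Of the other groups, none of the 10 tested caspases and death executioners and none of the 11 tested regulators of NLRC4 and AIM2 was called. Ninj1, whose product ruptures the membrane of dying cells, had by the authors' deposited table a log2 change of 0.45 (adjusted p 0.0679), and Casp8, an initiator caspase, -0.15 (adjusted p 0.332). The guanylate-binding proteins Gbp2 and Gbp5, which open bacterial vacuoles to caspase-11 and AIM2, had 0.97 (adjusted p 0.0571) and 1.41 (adjusted p 0.150) in the authors' deposited table, changes larger than that of Nlrp1b with wider intervals (0.30 to 1.65 and 0.17 to 2.64). Among the 17 genes that license or trigger NLRP3, Eif2ak2, the RNA-activated kinase, fell by the authors' deposited table from 705 to 503 normalized counts (log2 change -0.48, adjusted p 0.0133), while Hsp90ab1 had 0.23 (adjusted p 0.0732) and Syk 0.01 (adjusted p 0.993). Casp8ap2, which the list placed under restraint and clearance, fell by the authors' deposited table (-0.71, adjusted p 0.0363), and its role there was not tested. In the same group Tnfaip3, a ubiquitin-editing brake, had 0.73 (adjusted p 0.194) and Ddx3x -0.21 (adjusted p 0.513) in the authors' deposited table. Chmp4b, an ESCRT subunit that helps seal gasdermin pores, rose by the authors' deposited table from 715 to 1024 (log2 change 0.52, adjusted p 0.00404), and Pdcd6ip of the same machinery had -0.14 (adjusted p 0.277). With the GC and length trend removed, the log2 changes were 1.88 for Il1b (adjusted p 0.0672), 1.28 for Il1rn (0.0719), 0.24 for Chmp4b (0.488), -0.31 for Naip6 (0.301), -0.32 for Eif2ak2 (0.308) and -0.38 for Casp8ap2 (0.574), none past the threshold. With p-values adjusted over all genes with a p, without the low-count filter, Il1rn (adjusted p 0.0656) and Casp8ap2 (0.0573) lost their calls.

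**Figure D4:**
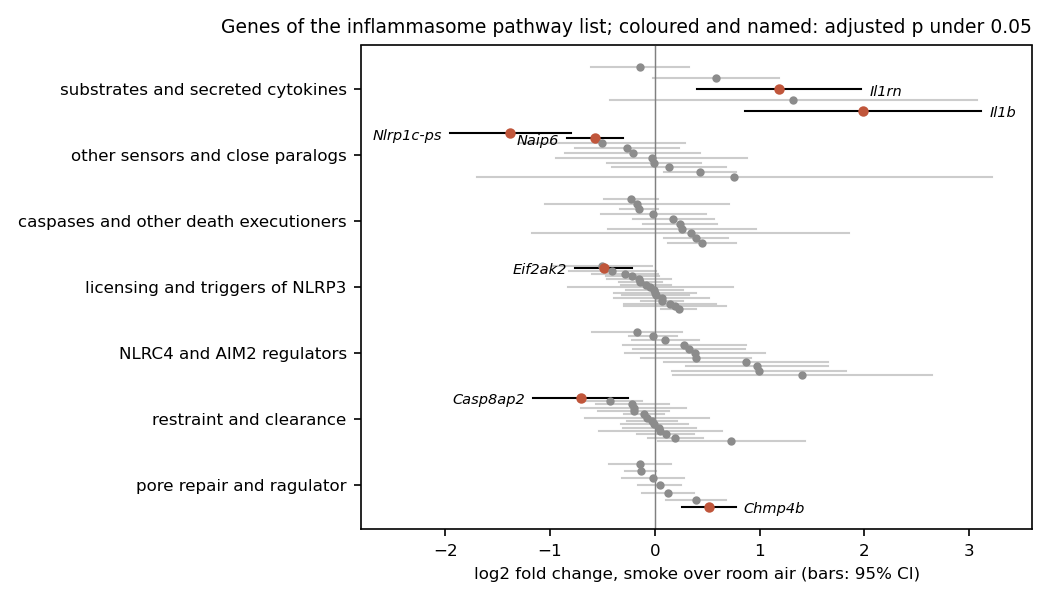
Log2 fold change of smoke over room air with 95% confidence interval for the 74 tested genes of the pathway list, grouped by role. The 7 named genes had an adjusted p under 0.05: Il1b, Il1rn and Chmp4b lie above 0 and Nlrp1c-ps, Naip6, Eif2ak2 and Casp8ap2 below.

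Splicing was read in each library as the percent inclusion of JuncBASE events, that is the share of reads at a splice choice that use the form the table counts as included, for a retained intron the form that keeps it. The 28 events within the genes lay in 3 of them, Gsdmd (13), Aim2 (9) and Nlrp3 (6), and none lay in the other 7 genes. A value in all 6 libraries was present for 17 events. In cigarette smoke replicate 1, 11 of the 28 had no value, as did 40.2% of all events in that library, while the other 5 libraries had a value for each of the 28. In limma's test with Benjamini-Hochberg adjustment none of the 28 events was past an adjusted p of 0.05 (lowest 0.288), nor was any of the 10376 events (0%). At an unadjusted limma p under 0.05 there were 2 of the 28 and 1125 of all events (10.8%), and in the authors' deposited JuncBASE table the corrected p of the 28 ran from 0.523 to 1. Without cigarette smoke replicate 3, limma called intron 5 of Gsdmd, intron 10 of Aim2 and an acceptor at intron 9 of Gsdmd, as it did many events outside these genes. In each of these, both remaining smoke values were 0%. Events with no value in cigarette smoke replicate 1, such as intron 6 of Gsdmd, kept 1 smoke library in that fit. No count of calls is therefore drawn from it.

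The stretches shown are those around the 2 retained introns with an unadjusted limma p under 0.05 and around the skipped exon of Nlrp3, which was chosen as a whole coding exon and whose groups overlap. They are read from GENCODE M21 transcripts, 5′ to 3′. For Nlrp3 the capitals are cassette exon 9 (chr11:59565040-59565210, plus strand, 171 bases, coding), with 10 bases of each neighbouring exon in lower case. For Aim2 and Gsdmd the last 25 bases of an exon are in lower case and the first 25 bases of the next in capitals, so that the intron lies at the change of case: intron 10 of Aim2 (chr1:173462321-173463858, plus strand, 1538 bases) and intron 5 of Gsdmd (chr15:75865526-75865759, plus strand, 234 bases).
Nlrp3 exon 9: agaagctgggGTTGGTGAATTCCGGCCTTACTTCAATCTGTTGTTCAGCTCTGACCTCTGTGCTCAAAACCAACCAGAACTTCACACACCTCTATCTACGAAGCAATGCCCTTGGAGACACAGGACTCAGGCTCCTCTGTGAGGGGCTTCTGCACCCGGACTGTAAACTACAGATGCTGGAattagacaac
Aim2 exons 10 and 11: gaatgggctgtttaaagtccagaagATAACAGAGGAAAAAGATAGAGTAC
Gsdmd exons 5 and 6: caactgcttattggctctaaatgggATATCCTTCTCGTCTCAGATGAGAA

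Retained introns made up 11 of the 28 events, 6 in Gsdmd, 3 in Aim2 and 2 in Nlrp3, and all 11 had a lower mean level after smoke. This is close to the background, since 89.9% of all 3305 retained introns in the table had a lower mean after smoke. Of the 8 introns with a value in every library, 4 had every smoke value below every room air value, against 38.7% of all 1992 such introns. Without cigarette smoke replicate 3 it was 7 of the 8, against 53.5% of the 1992.

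Gsdmd gave the highest levels. Intron 3 (chr15:75864437-75864948) was retained at 15.7%, 17.6% and 14.7% in room air and at 13.3%, 11.1% and 10.6% after smoke, so that the groups did not overlap, with limma's adjusted p of 0.623. Intron 5 was at 9.09%, 11.3% and 3.39% in room air and at 0%, 0% and 3.33% after smoke, groups that are apart by a narrow margin (limma p 0.0199, adjusted p 0.351). Intron 9 (chr15:75866691-75866789) was at 11.5%, 16.3% and 9.52% in room air and at 7.69%, 6.25% and 7.35% after smoke, again without overlap (limma's adjusted p 0.526). Intron 10 (chr15:75866864-75866996) was at 17.6%, 16.3% and 12.1% in room air and at 7.14%, 0% and 13.5% after smoke, and here replicate 3 of the smoke group lay within the room air values. Averaged over these 4 introns, Gsdmd retention was 12.9% ± 2.76 (SD, n = 3) in room air and 6.69% ± 2.20 (SD, n = 3) after smoke, a difference of -6.24 percentage points with a two-sided exact permutation p of 0.1, the smallest that 3 against 3 allows. Introns 2 and 6 of Gsdmd had no value in cigarette smoke replicate 1. Intron 2 was at 24.3%, 25.4% and 22.0% in room air and at 5.88% and 22.1% in smoke replicates 2 and 3, so that the higher smoke value lay within those of room air. That value was still below the room air mean of 23.9%, so the size of the difference, not its direction, rests on replicate 2. Intron 6 was at 7.89%, 10.2% and 6.12% in room air and at 0% and 5.56% after smoke, without overlap.

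In Aim2, intron 10 was retained at 9.30%, 6.17% and 4.05% in room air and at 0%, 0% and 2.41% after smoke. The groups did not overlap, and the mean differed by -5.70 percentage points (limma p 0.0113, adjusted p 0.288, the lowest of the 28 events). Intron 9 of Aim2 (chr1:173459850-173461906) was at 4.76%, 2.63% and 0% in room air and at 0%, 0% and 6.98% after smoke, with group means of 2.46% and 2.33% and overlapping groups. Over both introns the mean was 4.48% ± 2.50 (SD, n = 3) in room air and 1.56% ± 2.71 (SD, n = 3) after smoke, with a two-sided exact permutation p of 0.3. Intron 8 of Aim2 had no value in cigarette smoke replicate 1 and was at 5.88%, 1.89% and 3.77% in room air and at 0% and 4.55% in smoke replicates 2 and 3. Its groups overlapped, and without smoke replicate 2 the remaining smoke value lay above the room air mean of 3.85%.

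In Nlrp3, intron 8 (chr11:59558554-59565039) was retained at 3.33%, 5.13% and 1.89% in room air and at 0%, 0% and 3.64% after smoke. Intron 9 (chr11:59565211-59565844) was at 7.69%, 5.26% and 8.70% in room air and at 0%, 3.85% and 6.78% after smoke. The groups overlapped for both introns, and over both the mean was 5.33% ± 0.16 (SD, n = 3) in room air and 2.38% ± 2.63 (SD, n = 3) after smoke (two-sided exact permutation p 0.2). The difference over introns was -6.24 points in Gsdmd, -2.92 in Aim2 and -2.96 in Nlrp3, beside -4.23 points over all 1992 introns with a value in every library. The Aim2 difference was -1.65 without room air replicate 1 and -4.48 without cigarette smoke replicate 3, and the Nlrp3 difference was -1.77 without cigarette smoke replicate 1. Over the 1992 introns the level was 15.7% ± 0.98 (SD, n = 3) in room air and 11.4% ± 1.28 (SD, n = 3) after smoke.

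**Figure D5:**
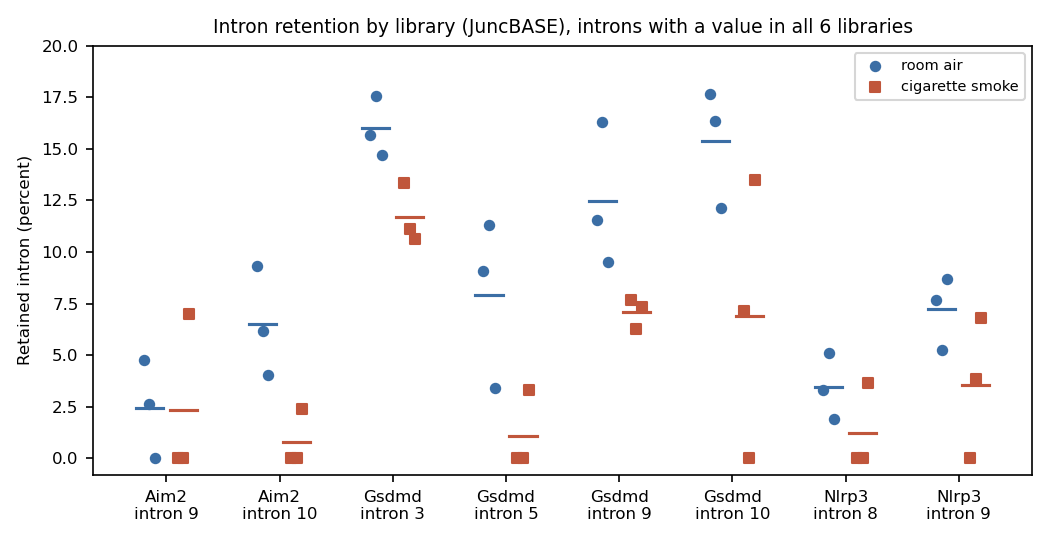
Percent retention of the 8 introns of Aim2, Gsdmd and Nlrp3 with a value in all 6 libraries; points are libraries (3 room air, 3 cigarette smoke) and lines are group means. The group mean is lower after smoke in each intron, and the groups do not overlap for Aim2 intron 10 and Gsdmd introns 3, 5 and 9.

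Of the 17 events that were not retained introns, 14 had a lower mean inclusion after smoke, beside 55.1% of all 7071 such events. Several of the 17 share a junction with each other. Exon 9 of Nlrp3, which codes for part of the leucine-rich repeats, was included at 93.9%, 97.7% and 100% in room air and at 100% in all 3 smoke libraries, so skipping was seen in 2 room air libraries (limma's adjusted p 0.503). A donor 4 bases into intron 8 of Nlrp3 was used at 0%, 5.13% and 3.70% in room air and 0%, 0% and 1.85% after smoke, with overlapping groups. Within intron 10 of Aim2, an unannotated donor whose removed stretch begins at 173463612 was used at 7.14%, 3.75% and 2.60% in room air and 0%, 3.45% and 2.38% after smoke. The use of the annotated donor of intron 10 of Aim2 ran the other way, at 92.9%, 95% and 92.2% in room air and 100%, 96.5% and 96.4% after smoke. Every smoke value lay above every room air value (two-sided exact permutation p 0.1, limma p 0.0749, adjusted p 0.481), and in the authors' deposited JuncBASE table this was the 1 event of the 28 with a raw p under 0.05 (0.0458, corrected p 0.523), beside 4.15% of all events. A further donor in that intron, at 173462871, was used at 0%, 1.25% and 5.19% in room air and at 0%, 0% and 1.19% after smoke. These 3 events are not independent results, since they divide up the same choice of donor. An unannotated acceptor in intron 10 of Aim2, which ends the removed stretch at 173462755, was used at 11.4%, 6.17% and 6.58% in room air and at 0%, 3.45% and 3.57% after smoke. Its groups did not overlap (limma p 0.0508, adjusted p 0.465). It shares the removed junction and part of the intron with the retention event of intron 10. The retention, donor and acceptor results at this intron are therefore not separate results.

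At intron 9 of Gsdmd, the event of a donor 19 bases into the intron also counts reads within those 19 bases. Retention of intron 9 covers these bases too. The event was at 11.5%, 12.2% and 7.32% in room air and at 7.69%, 11.8% and 4.55% after smoke, and the groups overlapped. Counted from junction reads alone, the same donor was at 11.5%, 0% and 0% in room air and at 0%, 6.25% and 1.56% after smoke. Where this count was 0%, the first count does not show use of the donor. The event of an acceptor 12 bases before the annotated one was at 4.17%, 5.26% and 2.56% in room air and at 0%, 0% and 5.97% after smoke, with smoke replicate 3 above every room air library. It likewise counts reads within the 12 bases. The other 8 of these 17 events had no value in cigarette smoke replicate 1 and mean inclusion levels between 87.7% and 100% in both groups, none past the threshold.

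The authors' deposited rMATS table, a separate test of intron retention that also counts reads inside the intron, held 3 introns within the 10 genes. Of its 3887 introns, 14.5% had a false discovery rate under 0.05, and 1 of the 3 did. This was an intron of Casp4 (chr9:5328543-5335995, plus strand, 7453 bases, intron 7 of the gene's longest coding transcript), with a false discovery rate of 0.0112 and a difference between the sample sets of 1.40 percentage points in the authors' deposited table. Which of the sets holds the smoke libraries is not given in the sources used here, so no direction is drawn. An intron of Nlrp3 (chr11:59542690-59542808, false discovery rate 0.406) and intron 3 of Pycard-202 (chr7:127991676-127992710, false discovery rate 1) did not pass in the authors' deposited table. In the authors' merged annotation transcripts of Casp1 and Casp4 share a locus, as do those of Naip5 and most of those of Naip2 (7, with 1 further single-exon transcript in a locus of its own), so the shared names do not separate these genes.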

How the data were processed

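RNA from the 6 cultures was sequenced from directional libraries, per the labels' protocols. The submitters' processing notes name STAR, DESeq2, SAMtools 1.9, bedtools 2.27.1 and mm10, without roles. Per the file headers, the signal columns of the expression table the authors deposited are means of size-factor-normalized counts over each group and over 24 libraries, of which 18 are not analysed here. The log2 fold changes, standard errors, Wald score, p-values and adjusted p-values are those of the authors' deposited DESeq2 fit, so all 24 libraries entered the spread. Its low-count filter left genes with a 24-library mean of at most 8.52 without an adjusted p. Confidence intervals (95%) were computed here as the log2 fold change plus or minus the normal quantile times the standard error. An expression test was not run because no counts per library were used.

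The authors deposited JuncBASE levels as percent inclusion per library, together with p-values. Here the log2 odds of inclusion, after adding 1 percentage point to each side, were fitted with limma 3.58.1 (R 4.3.3) with group as the term over all 10376 events, each with at least 2 values per group, and adjusted by Benjamini-Hochberg. Single values were compared by a two-sided exact permutation test over 20 assignments. The rMATS inclusion difference in the authors' deposited table is a fraction, printed here as percentage points, and its p-values and false discovery rates are the authors' own. Its 6 columns of per-sample values were not used, since the sample sets are unnamed and separators were lost. Coverage is unknown, so no coverage minimum could be set.

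The trend of fold change in GC content and length, from the longest GENCODE M21 transcript (99.9% of genes matched), was removed by spline regression in statsmodels 0.14.6 with patsy 1.0.2, using 4 degrees of freedom per term. Both this step and the limma step were run on simulated data with changes larger than any among the 10 genes or their events. These runs do not show how changes of the size seen here fare. Shared words of 50 bases, positions and exons came from GENCODE M21 (GRCm38), and promoter windows from RefSeq (GRCm38.p6). The genes, the pathway list and the markers were chosen with earlier results of these data known. Named were all 10 genes, every pathway list gene past the threshold, at most 2 further genes per role with the highest 24-library mean, and every splicing event in the genes, with values per library where all 6 had one. Alternatives were other thresholds and filters, the trend removal, a ratio of group means, other pseudocounts and scales, complete events, a replicate block and leaving out each library. A leave-out fit could keep fewer than 2 values in the group that lost a library. Leaving out each library for the counts and means of retained introns was chosen after seeing the data.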

Additional observations from a re-analysis of the deposited data

Results flagged for a closer look

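The 24-library mean and the group means give, by arithmetic, the mean over the 18 libraries that are not analysed here. For 6 of the 10 genes this mean was more than 2 times both group means, which is a signal outside the comparison of the report. What these libraries are is not given in the sources used here, and no group in them was compared. The values, as means of normalized counts over the 18 libraries computed from the authors' deposited table, were 4660 for Nlrp3, 1193 for Casp4, 1600 for Casp1, 1342 for Naip2, 913 for Gsdmd and 897 for Aim2. For Nlrp3 this was 10.4 times the room air mean and 9.82 times the smoke mean, and for Casp4 9.66 and 8.03 times. Of the other 4 genes, Nlrp1b had the lowest ratios, with 81.5 normalized counts over the 18 libraries, 0.375 times the room air mean and 0.70 times the smoke mean.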

How the results depend on the processing

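Of the 10 genes, 3 were called at an adjusted p under 0.05 and 1 after the GC and length trend was removed. Over all genes the 929 calls became 366 at 0.01, 1547 at 0.1 and 153 without the trend, and over the pathway list the 7 became 3, 13 and 1. Without the low-count filter the calls were 3 of the 10 genes, 688 of all genes and 5 of the pathway list. Gsdmd turned from 0.13 to -0.11 without the trend; the cause was not tested. No gene or pathway call could be run without single libraries, since expression was given as group means. The count of member events past the threshold was 0 in each alternative except leaving out cigarette smoke replicate 3, where some were called. That fit kept 1 smoke library for events without a value in cigarette smoke replicate 1, so no count is given for it. Over all events there were 23 calls among events complete in all 6 libraries and 5 on the linear scale. The replicate block gave 0 member events and 0 events in all. Same-numbered samples did not deviate together (correlations 0.02, -0.04 and -0.09). With so few samples per group this cannot show whether the numbers pair them. The rMATS count of 1 became 0 at a false discovery rate under 0.01 and 0 with a difference of at least 10 percentage points. When each library was left out, member retained introns with a lower mean ranged from 9 to 11 and those without overlap from 4 to 7. The difference of Aim2 intron 9 ranged from -2.46 to 1.03 points, and that of the junction-only donor at Gsdmd intron 9 from -3.17 to 2.60. Depth is unknown, so no limit from counting can be given for the low inclusion levels.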
